A study of Homo sapiens with 6 samples.

Results

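Genes of homologous recombination, the Fanconi anaemia pathway, DNA damage checkpoint signalling and mismatch repair were measured in human glioblastoma xenografts from mice given bevacizumab or saline. The group is a list of 38 human genes, and its members were taken as every probe set that the array annotation assigns to a single gene of the list. 33 of the 38 genes had such a probe set, out of 19775 genes on the array, and 29 of the 33 were bright enough to be tested, out of 10233 genes tested. RAD51B, RAD51D, RAD52 and FANCE were under the limit on dim genes, a mean log2 value of 4 over the 6 arrays. BRCA2, FANCA, FANCD2, RBBP8 and PMS2 had no single-gene probe set in the annotation used here and were not analysed here.

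The study asked how tumour gene expression changes in vivo under anti-VEGF treatment. U87-EV, a derivative of the U87 human glioblastoma line, was grown under the skin of female BALB/c SCID mice aged 6 to 8 weeks, from cells injected with Matrigel, a basement membrane extract. From a tumour volume of 150 to 200 mm3, with 5 mice per group at the start, one group received bevacizumab, an antibody that binds human VEGF-A, by intraperitoneal injection at 10 mg/kg, repeated after 3 days each time, and the control group received saline, until the tumours measured about 15 to 30 mm. Total RNA was hybridised to Affymetrix genome-wide 3′ expression arrays, 3 control and 3 bevacizumab arrays, each with 54675 probe sets. The host lacks T and B cells, all tumours came from 1 cell line, and the mouse stroma is seen only as far as its RNA binds human probes. The labels do not say that the arrays came from separate mice, so each p-value is set against array-to-array spread that could be technical alone. In whole tumours, fewer cells of a type and less RNA per cell cannot be told apart.

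Homologous recombination repairs a broken chromosome by copying the sister chromatid. The break is recognised and its ends are trimmed to single strands, a recombinase filament is loaded onto them with the help of the BRCA proteins, and the filament invades the intact duplex. The Fanconi pathway detects crosslinks between the strands of DNA when replication forks meet them, marks the FANCI-FANCD2 pair with ubiquitin and hands the lesion to nucleases and to recombination. Mismatch repair removes wrongly paired bases that polymerases leave behind. Recombination needs a sister chromatid, so in dividing cells many of its genes are transcribed mainly in S and G2 phase, in part through E2F sites and CCAAT boxes in their promoters.

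Those promoter letters were looked for in a window around 1 transcript start per gene, the first that RefSeq's promoters of GRCh38.p14 list for it. 26 of the 29 tested members had a window; RAD54B, NBN and FANCI did not. The start was the gene's outermost one in 21 of the 26, and it lay inside the gene by 18568 bases in MRE11, 1093 in CHEK1, 218 in EXO1, 55 in FANCL and 14 in CHEK2. Some genes had further windows that were not searched, such as BRCA1 with 2 in all, CHEK1 with 3 and MSH6 with 4. Whether the start used here is the main one in these tumours was not tested. E2F-type letters (TTNNCGC with GG, CG, CC or GC in place of NN, on either strand) were present in 14 of the 26 members, against 13.05% of all 27305 windows. CCAAT, on either strand, was present in 15 of the 26, against 35.7% of all windows; the 2 motifs can overlap, since GCGCCAA ends in the start of CCAAT. Both kinds of letters occurred in members that fell and in members that did not pass. E2F-type letters were present in 5 of the 9 members with a window that fell under bevacizumab and in 9 of the 17 that did not pass the test, and CCAAT in 5 of the 9 and 10 of the 17. The CHR letters (TTTGAA or TTCGAA, either strand) were present in 4 of the 26, against 16.62% of all windows. ACGTG on either strand, a form of the hypoxia-response letters, was present in 7 of the 26, against 21.61%. Other forms of the hypoxia-response letters were not searched. None of the 9 members that fell held ACGTG, and 7 of the 17 others did. A match is a description of these letters and not of a factor bound there.

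5 stretches show what such matches look like, each the 100 bases before that transcript start, 5′ to 3′ on the gene's own strand. E2F-type and CCAAT matches of either orientation are in capitals. Only stretches with an E2F-type match were eligible, so the 5 do not stand for all members. RAD51AP1 (chr12:4538790-4538889, plus strand), BLM (chr15:90717246-90717345, plus strand) and FANCG (chr9:35079943-35080042, minus strand) fell under bevacizumab. FANCL (chr2:58241326-58241425, minus strand) and PMS1 (chr2:189784350-189784449, plus strand) did not pass the test. The FANCL stretch, like that of FANCG, holds E2F-type letters without CCAAT, and the PMS1 stretch holds both kinds. The 55 bases of the FANCL stretch next to its start lie within the gene's outermost span.
RAD51AP1: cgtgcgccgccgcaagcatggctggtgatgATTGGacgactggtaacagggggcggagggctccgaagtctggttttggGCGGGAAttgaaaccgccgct
BLM: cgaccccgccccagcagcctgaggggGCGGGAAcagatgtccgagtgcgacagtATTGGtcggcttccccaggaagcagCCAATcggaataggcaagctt
FANCG: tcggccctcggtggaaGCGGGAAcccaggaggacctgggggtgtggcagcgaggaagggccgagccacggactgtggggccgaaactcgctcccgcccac
FANCL: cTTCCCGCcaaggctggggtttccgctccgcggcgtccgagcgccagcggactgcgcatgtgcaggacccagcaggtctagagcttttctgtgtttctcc
PMS1: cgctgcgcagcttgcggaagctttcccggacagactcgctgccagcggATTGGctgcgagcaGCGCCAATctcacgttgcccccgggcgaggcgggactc

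Under bevacizumab 11 of the 29 tested members fell and 0 rose (limma, Benjamini-Hochberg adjusted p under 0.05 over all 10233 genes). That is 37.9% of the members, where 9.97% of all genes tested fell and 9.09% rose. The 11 were BRCA1, BRIP1, RAD51C, RAD51AP1, RAD54B, EXO1, BLM, FANCG, UBE2T, FANCI and CHEK1, so they include a tumour suppressor and its helicase partner, strand-exchange factors, a resection nuclease, Fanconi proteins and a checkpoint kinase. The falls ran from 1.40-fold in FANCG to 2.37-fold in EXO1. The other 18 did not pass. At an unadjusted p under 0.05, 14 members were lower and 1 was higher, against 18.5% and 17.3% of all genes.

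The members lay mostly on the lower side. 24 of the 29 had a negative log2 difference (bevacizumab minus control), 4 a positive one and XRCC3 none, and 51.3% of all genes were negative. Their median log2 difference was -0.48, against -0.01 over all genes, with a range from -1.24 in EXO1 to 0.65 in XRCC2. All 3 bevacizumab arrays lay below all 3 control arrays for 15 members, where 22.0% of all genes did so. XRCC2 was the 1 member whose bevacizumab arrays all lay above the controls, as in 19.0% of all genes, so that the groups did not overlap for 16 members, where 41.0% of all genes did not, and they overlapped for the other 13. XRCC3, RAD54L and CHEK2 stood at 1 repeated value on 6, 4 and 4 arrays. Whether the background model of the deposited values set those levels was not tested. Among the other 26 members the median was -0.49.

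**Figure D1:**
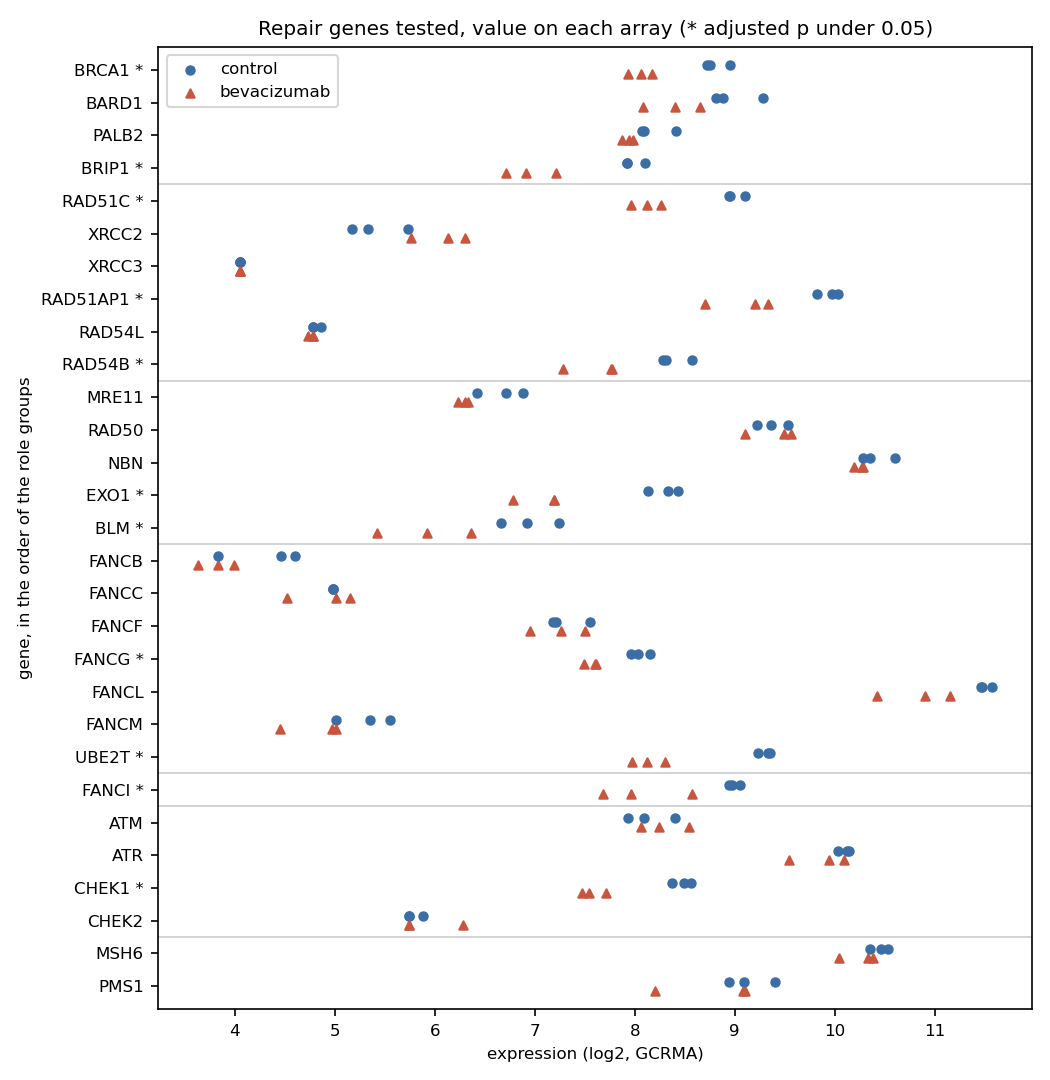
Value of each of the 29 tested members on each array (log2, GCRMA), with genes in the order of the role groups, circles for the 3 control and triangles for the 3 bevacizumab arrays, and an asterisk for an adjusted p under 0.05. The triangles lie wholly to the left of the circles for 15 members, BRCA1, EXO1, UBE2T and CHEK1 among them, and wholly to the right for XRCC2.

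The count varied with which array was left out and with the fit. Without control array 1, 2 or 3 it was 6 each time, and without bevacizumab array 1, 2 or 3 it was 12, 7 or 9. BRCA1, BRIP1, RAD51C, EXO1, UBE2T and CHEK1 passed in all 6 of these fits. Over all genes, 1020 fell in the main fit and 275, 262 and 378 without control array 1, 2 and 3. Without bevacizumab array 1, 2 and 3 the count over all genes was 934, 506 and 736. With no filter on dim genes 6 members and 331 of all 19775 genes fell, and BRIP1 was among the 5 members lost. With the ACTB 3′ minus 5′ value, a sign of RNA quality, as a covariate 0 members and 11 genes over all fell. The replicate block left 8 members, and the remaining settings gave 12 or 13.

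**Figure D2:**
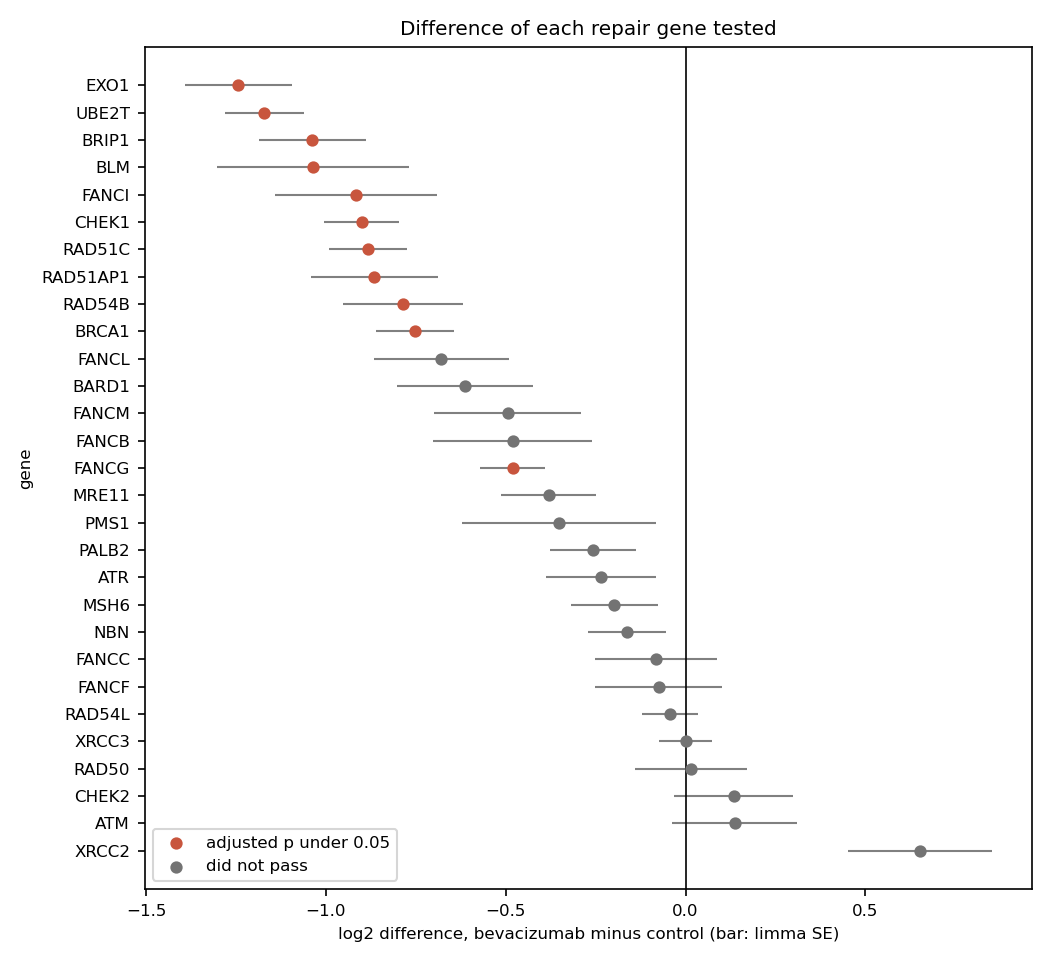
Log2 difference (bevacizumab minus control) of each tested member, with a bar of 1 limma standard error on each side, 3 arrays per group, ordered by size. Red points passed an adjusted p of 0.05; all 11 of them lie between -1.24 and -0.48, and no point to the right of 0 passed.

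BRCA1 and its partners lay lower on every bevacizumab array, and 2 of the 4 measured passed the test. BRCA1, a ubiquitin ligase subunit that promotes resection and filament loading, was at 8.96, 8.75 and 8.73 on the control arrays and at 8.17, 8.06 and 7.94 on the bevacizumab arrays (log2 values). It fell from 8.81 ± 0.13 to 8.06 ± 0.12 (SD, n = 3 arrays), a log2 difference of -0.75 (SE 0.11, limma adjusted p = 0.00943), which leaves 59.3% of the control level. The 2 groups did not overlap, and the gap between them was wider than the range of either.

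BRIP1, the helicase that binds the BRCA1 tail and is also a Fanconi gene, stood at 7.92, 7.92 and 8.11 in controls and at 7.22, 6.91 and 6.71 under bevacizumab. It fell 2.05-fold, from 7.98 ± 0.11 to 6.94 ± 0.25 (log2 difference -1.04, SE 0.15, limma adjusted p = 0.00924). All bevacizumab values lay below all controls, with a wider spread among them.

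BARD1, the partner that forms the ligase with BRCA1, had control values of 8.89, 8.82 and 9.28 and bevacizumab values of 8.65, 8.40 and 8.09. The groups were apart, but the log2 difference of -0.61 (SE 0.19) did not pass (limma adjusted p = 0.0711). The other 2 bright BARD1 probe sets were lower by -0.83 and -1.0 on the log2 scale, and each passed when probe sets were tested one by one (limma adjusted p = 0.0437 and 0.0216 over 18469 probe sets). PALB2, which bridges BRCA1 to BRCA2, read 8.09, 8.07 and 8.42 in controls and 7.95, 7.99 and 7.87 under bevacizumab. Its log2 difference of -0.26 did not pass (limma adjusted p = 0.176).

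Of the paralogs and accessory factors of the strand-exchange recombinase, 3 of the 6 tested fell, RAD51C, RAD51AP1 and RAD54B. RAD51C, a subunit of both paralog complexes, was at 8.94, 8.96 and 9.10 on control arrays and at 8.26, 8.12 and 7.97 on bevacizumab arrays. It fell 1.84-fold, from 9.0 ± 0.09 to 8.12 ± 0.15 (log2 difference -0.88, SE 0.11, limma adjusted p = 0.00644). The gap between the groups was wider than the range of either.

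RAD51AP1, which helps the filament pair with the intact duplex, stood at 9.82, 9.98 and 10.04 in controls and at 9.33, 8.71 and 9.20 under bevacizumab. It fell by 0.87 on the log2 scale (SE 0.18, limma adjusted p = 0.0237), with bevacizumab array 2 lowest. RAD54B, a motor protein that moves along the duplex during strand invasion, read 8.29, 8.58 and 8.32 against 7.78, 7.76 and 7.28, and fell by 0.79 (SE 0.17, limma adjusted p = 0.0263). Neither group overlapped the other for these genes, but both calls were lost when any 1 control was left out. The differences without control array 1, 2 or 3 were -0.927, -0.85 and -0.821 for RAD51AP1 and -0.839, -0.695 and -0.823 for RAD54B. The count of all genes lower went from 1020 to 275, 262 and 378 in the same fits. Without control array 1, 2 or 3 the limma adjusted p was 0.0688, 0.0856 and 0.0791 for RAD51AP1 and 0.0751, 0.0922 and 0.0714 for RAD54B, which was also at 0.0544 without bevacizumab array 2.

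XRCC2, a paralog of the complex that stabilises the filament, went the other way without passing. It was at 5.18, 5.33 and 5.74 on control arrays and at 6.30, 6.13 and 5.76 on bevacizumab arrays, a log2 difference of 0.65 (SE 0.20, limma adjusted p = 0.0706). Control array 3 and bevacizumab array 3 nearly met. Of the settings tried, it passed only after a second quantile normalization of the arrays. RAD54L, the relative of RAD54B, differed by -0.04 (limma adjusted p = 0.714), and XRCC3 read 4.05 on all 6 arrays.

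The 3 dim members of this set have values and no test. RAD51B read 4.36, 3.70 and 4.0 in controls and 3.80, 3.73 and 3.68 under bevacizumab. RAD51D read 3.50, 3.42 and 3.74 against 3.37, 3.25 and 3.42, and RAD52, an annealing factor, 3.67, 3.02 and 3.02 against 3.00, 2.63 and 3.00. All 3 overlapped between the groups or lay close to it, at levels where the background model compresses changes.

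Among the genes that sense and process the break, EXO1 and BLM fell while the sensor complex itself did not pass. EXO1, the exonuclease of long-range resection that also excises mismatches, was at 8.14, 8.43 and 8.33 in controls and at 7.19, 6.79 and 7.19 under bevacizumab. It fell from 8.30 ± 0.15 to 7.06 ± 0.23, a log2 difference of -1.24 (SE 0.15, limma adjusted p = 0.00609), the largest among the 29 tested members. The highest bevacizumab value lay well below the lowest control. 2 bevacizumab arrays shared the value 7.19, and whether the background model set it was not tested.

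BLM, the helicase that works with resection and later dissolves crossed strands, stood at 7.24, 6.66 and 6.93 against 6.37, 5.93 and 5.42. It fell 2.05-fold (6.94 ± 0.29 to 5.91 ± 0.47, log2 difference -1.04, SE 0.27, limma adjusted p = 0.0437). The groups were apart by less than the range within either. Its call ended in 5 of the 6 fits with 1 array left out: the limma adjusted p was 0.14, 0.0847 and 0.113 without control array 1, 2 and 3, and 0.11 and 0.0776 without bevacizumab array 2 and 3.

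MRE11, RAD50 and NBN form the complex that binds broken ends and activates ATM. MRE11, the nuclease, read 6.89, 6.42 and 6.71 in controls and 6.31, 6.24 and 6.34 under bevacizumab, apart by a small gap, with a log2 difference of -0.38 (SE 0.13, limma adjusted p = 0.0964). RAD50, the tether, read 9.22, 9.36 and 9.53 against 9.49, 9.56 and 9.10 and differed by 0.02 (limma adjusted p = 0.954). The RAD50 groups overlapped. NBN, the adaptor, differed by -0.16 (limma adjusted p = 0.328), and its 4 bright probe sets ran from -0.32 to 0.08.

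In the Fanconi core complex and its conjugating enzyme, UBE2T and FANCG fell and the other 5 tested genes did not pass. UBE2T, the enzyme that brings ubiquitin to FANCI and FANCD2, had the lowest adjusted p of the 29 tested members. It was at 9.23, 9.33 and 9.35 on control arrays and at 8.30, 7.98 and 8.12 on bevacizumab arrays, and fell from 9.30 ± 0.07 to 8.13 ± 0.16 (log2 difference -1.17, SE 0.11, limma adjusted p = 0.00367). Its bevacizumab level was 44.4% of the control level, with no overlap.

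FANCG, a scaffold subunit of the core, stood at 8.15, 7.96 and 8.03 in controls and at 7.61, 7.49 and 7.60 under bevacizumab. Its fall of 0.48 on the log2 scale was the smallest among the 11 but came with a narrow spread (8.05 ± 0.09 to 7.57 ± 0.06, SE 0.09, limma adjusted p = 0.019). The call ended without control array 1, 2 or 3 (limma adjusted p = 0.0689, 0.0555 and 0.0571) and without bevacizumab array 2 (0.0528).

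FANCL, the ubiquitin ligase subunit of the core, read 11.48, 11.46 and 11.58 in controls and 11.15, 10.90 and 10.43 under bevacizumab. The groups were apart, and the log2 difference was -0.68 (SE 0.19), just short of the threshold (limma adjusted p = 0.0531). Without bevacizumab array 1 it passed (limma adjusted p = 0.0281). FANCM, the translocase that anchors the core to DNA, had values of 5.36, 5.02 and 5.55 against 4.97, 5.02 and 4.46 (log2 difference -0.49, limma adjusted p = 0.142). A second FANCM probe set was lower by -0.87 and passed among probe sets (limma adjusted p = 0.0265).

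FANCB, FANCC and FANCF are further core subunits, and none of them passed. FANCB read 4.46, 3.83 and 4.60 in controls and 3.83, 3.99 and 3.63 under bevacizumab (limma adjusted p = 0.175). FANCF read 7.18, 7.22 and 7.55 against 6.95, 7.51 and 7.27, which overlapped (log2 difference -0.08). A second FANCF probe set had all bevacizumab arrays below all controls, and its difference of -0.37 did not pass (limma adjusted p = 0.1 among probe sets). FANCC read 4.98 on every control and 4.53, 5.15 and 5.01 under bevacizumab, and FANCE, untested, read 3.38 on 5 of the 6 arrays.

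FANCI, the member of the ubiquitinated pair that was measured here, fell. It stood at 8.97, 8.94 and 9.05 on the control arrays and at 8.57, 7.96 and 7.68 on the bevacizumab arrays, from 8.99 ± 0.06 to 8.07 ± 0.45 (log2 difference -0.92, SE 0.22, limma adjusted p = 0.0386). The controls were close together and the bevacizumab arrays were spread, with array 1 nearest the controls. Without control array 1, 2 or 3 the limma adjusted p was 0.115, 0.111 and 0.11, and without bevacizumab array 2 and 3 it was 0.11 and 0.0715.

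FANCI had 3 bright probe sets, and they were lower by unequal amounts. The second was lower by -0.79 on the log2 scale (limma adjusted p = 0.0218 among probe sets). The third was at 7.75, 7.69 and 7.41 in controls and at 5.89, 4.97 and 5.16 under bevacizumab, a log2 difference of -2.27 (SE 0.26, limma adjusted p = 0.0069 among probe sets). The third probe set minus the one used for the gene was -1.64 to -1.22 on control arrays and -2.99 to -2.52 on bevacizumab arrays. This change of -1.36 had an exact two-sided permutation p of 0.1, the smallest that 3 against 3 arrays allow, and 0.333 after Benjamini-Hochberg adjustment over 20 such pairs of probe sets in the members. 6 of the 20 pairs did not overlap between groups, where 28.5% of all 8236 such pairs did not.

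Among the checkpoint kinases, CHEK1 fell and ATM, ATR and CHEK2 did not pass. CHEK1, the kinase that slows the cycle when forks stall, was at 8.37, 8.50 and 8.56 in controls and at 7.47, 7.55 and 7.72 under bevacizumab. It fell from 8.48 ± 0.10 to 7.58 ± 0.13 (log2 difference -0.90, SE 0.10, limma adjusted p = 0.00559), to 53.6% of control, and the groups were far apart.

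ATM, the kinase activated by double-strand breaks, had controls at 7.94, 8.10 and 8.40 and bevacizumab arrays at 8.54, 8.24 and 8.07, which overlapped (log2 difference 0.14, limma adjusted p = 0.601). All 3 of its bright probe sets had positive differences, 0.10, 0.14 and 0.48. ATR, the kinase upstream of CHEK1, read 10.12, 10.03 and 10.14 against 10.09, 9.95 and 9.54 (log2 difference -0.23, limma adjusted p = 0.314), and only bevacizumab array 3 lay clearly below the controls in this probe set. In the other bright ATR probe set all 3 bevacizumab arrays (9.01, 9.18 and 8.88) lay below the controls (9.41, 9.34 and 9.44), and the difference of -0.38 did not pass (limma adjusted p = 0.0663 among probe sets). CHEK2, the kinase downstream of ATM, read 5.75 on 4 of the 6 arrays, 5.88 on control array 3 and 6.28 on bevacizumab array 2.

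Of the mismatch repair genes in the list, MSH6 and PMS1 were tested, and neither passed. MSH6, a subunit of the complex that recognises base mismatches, read 10.53, 10.35 and 10.46 in controls and 10.33, 10.38 and 10.04 under bevacizumab (log2 difference -0.20, limma adjusted p = 0.285). A second MSH6 probe set read 9.19, 8.83 and 9.07 against 8.58, 8.59 and 8.32, did not overlap, and was lower by -0.54 (limma adjusted p = 0.0481 among probe sets). PMS1, a MutL relative, read 8.95, 9.09 and 9.40 against 9.10, 9.08 and 8.21 (log2 difference -0.35, limma adjusted p = 0.391), and bevacizumab array 3 alone stood low.

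**Figure D3:**
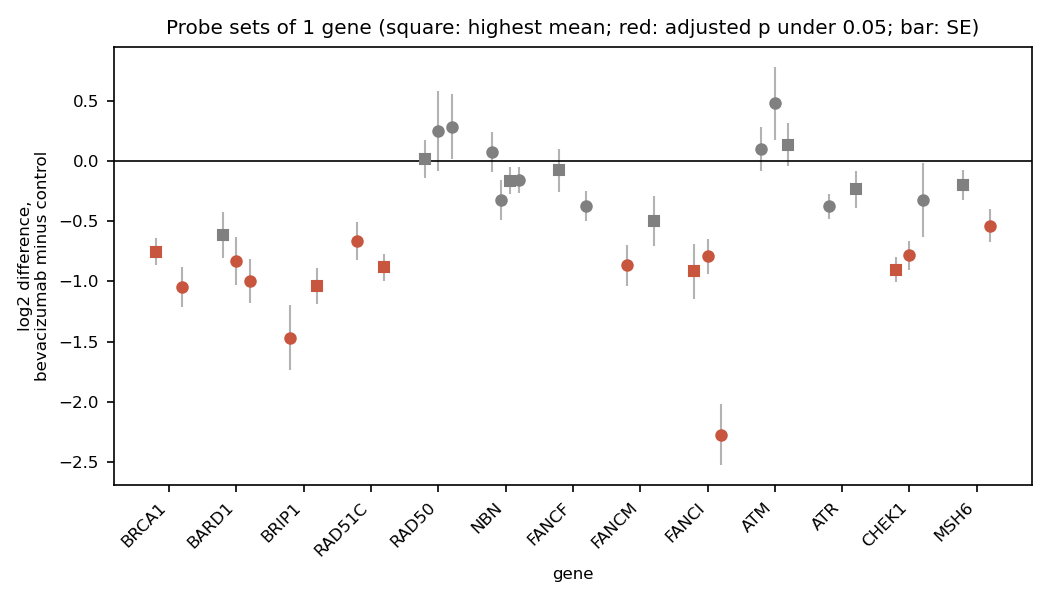
Log2 difference (bevacizumab minus control) of each bright probe set for the 13 members with several, with limma standard errors; squares mark the probe set with the highest mean, and red an adjusted p under 0.05. The FANCI probe set at -2.27 stands far from the gene's other 2, while the ATM and RAD50 probe sets all lie above 0.

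The genes' separate probe sets can be read beside each other. The 33 measured members had 81 probe sets, of which 49 were bright enough to test. 20 of the 49 fell (40.8%) and 0 rose, where 7.98% of all 18469 probe sets tested fell and 7.46% rose. 13 tested members had several bright probe sets: all pointed lower in 10, NBN was mixed, and those of ATM and RAD50 did not point lower. The same share over all genes with several bright probe sets was not counted. For BRCA1, BRIP1 and RAD51C the second bright probe set also fell, with log2 differences of -1.05, -1.47 and -0.66 (limma adjusted p = 0.0151, 0.0224 and 0.0439). CHEK1 had 2 more: 1 fell by 0.78 on the log2 scale (limma adjusted p = 0.014), and the other differed by -0.32 (limma adjusted p = 0.5).

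Other genes of recombination and crosslink repair, from a list of 50 of which 44 were tested, were lower in part: 10 fell (22.7%), 1 rose, and the median log2 difference was -0.28. The difference between this share and the members' was not tested. RMI1 and RMI2, which complete the BLM dissolvasome, fell with log2 differences of -0.53 (limma adjusted p = 0.0158) and -0.62. DNA2, a second resection nuclease, fell by 1.40, and ERCC4, the crosslink-unhooking nuclease subunit, fell by 0.83. MND1 and PSMC3IP, partners in strand exchange, fell with differences of -0.67 and -0.47, FIGNL1, a filament regulator, of -0.62, SMC6, a subunit of an SMC complex, of -0.59, and the single-strand binding subunits RPA3 and RPA2 of -0.46 and -0.36. BABAM2, a subunit of a BRCA1 deubiquitinase complex, rose by 0.71 (limma adjusted p = 0.035). This list's count was 1, 0 and 0 without control array 1, 2 and 3, and 12, 3 and 6 without bevacizumab array 1, 2 and 3.

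Of 18 tested genes of break signalling and the replication checkpoint, 4 fell and 0 rose, with a median of -0.26. TIPIN and TIMELESS, the fork protection pair that helps ATR activate CHEK1, fell with log2 differences of -0.86 (limma adjusted p = 0.00834) and -0.63 (0.0183). CDC25C, a phosphatase that CHEK1 restrains, fell by 0.83 (0.0126), and PPM1D, a phosphatase that switches checkpoint kinases off, fell by 0.83 (0.0329). Among 12 tested genes that mismatch repair shares with other pathways or that belong to it otherwise, 5 fell (41.7%) and 0 rose. They were the sliding clamp PCNA, at -0.91 on the log2 scale (limma adjusted p = 0.00482), the clamp loader subunits RFC3, RFC4 and RFC2, at -0.84, -0.76 and -0.59, and the polymerase subunit POLD3, at -0.47. All 5 are also replication proteins. MSH3 and MLH3, which act in mismatch repair itself, had differences of 0.24 and -0.05 and did not pass.

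**Figure D4:**
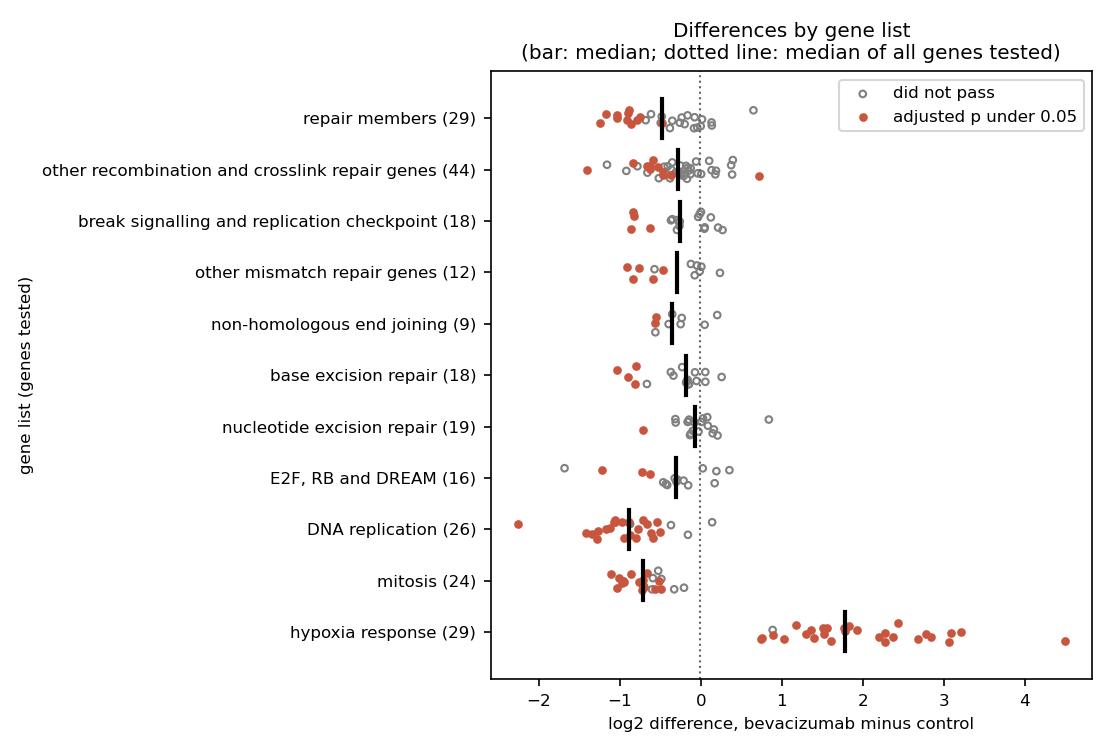
Log2 difference (bevacizumab minus control) of each tested gene in 11 lists, with the number tested in parentheses, a bar at each list's median and a dotted line at the median of all genes; red points passed an adjusted p of 0.05. The repair members' median of -0.48 lies between those of the other recombination genes (-0.28) and the DNA replication genes (-0.88), and the hypoxia genes lie on the opposite side.

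DNA replication and mitosis genes moved in the same direction in the same arrays, and their part in the members' values was not tested. Of 26 tested replication genes 22 fell (84.6%), with a median log2 difference of -0.88. MCM7, a subunit of the replicative helicase, fell by 1.05 (limma adjusted p = 0.00207). The initiation factors CDC45 and CDC6 fell with differences of -1.34 and -1.26. CDC45 read 5.30, 5.30 and 5.31 on the bevacizumab arrays, 2 of them at 1 repeated value. Whether the background model set that level was not tested. Of 24 tested mitosis genes 18 fell, with a median of -0.71, and the proliferation antigen MKI67 fell from 9.93 ± 0.10 to 8.90 ± 0.33 (log2 difference -1.03, limma adjusted p = 0.0144).

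By array, the median shift of the members from their control means was -0.05, -0.05 and 0.07 on the controls and -0.36, -0.31 and -0.66 on bevacizumab arrays 1, 2 and 3. For the replication genes it was -0.73, -1.0 and -0.99 on the same bevacizumab arrays, and for the mitosis genes -0.56, -0.67 and -0.90. In each of the 3 lists the control arrays lay within 0.09 of 0, and every bevacizumab array lay below every control array.

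**Figure D5:**
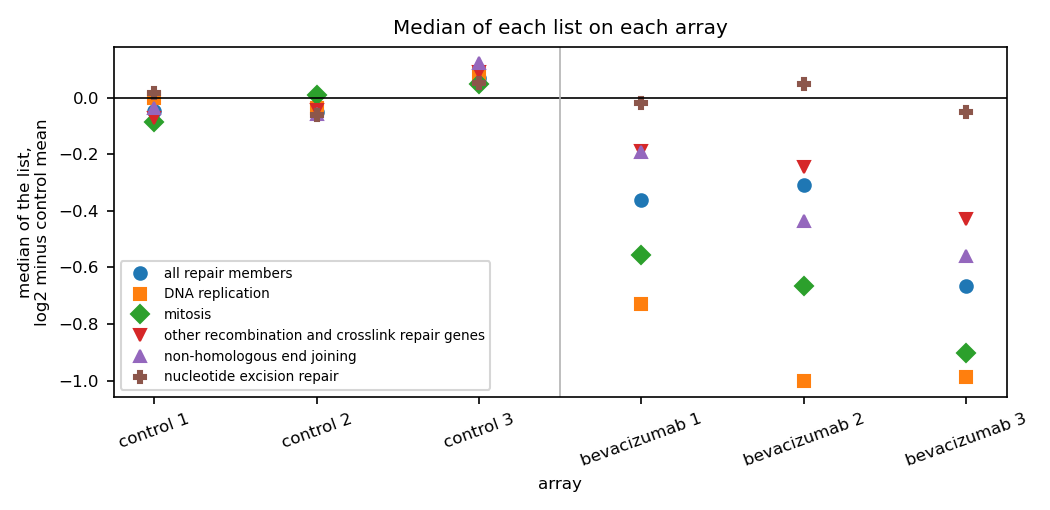
Median over the tested genes of 6 lists of the log2 value minus the gene's control mean, on each of the 6 arrays. On the bevacizumab arrays the members' circles, at -0.36, -0.31 and -0.66, lie above the replication genes' squares, at -0.73, -1.0 and -0.99, and the nucleotide excision repair genes stay near 0.

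Of the 16 tested genes of the E2F, RB and DREAM regulators, 3 fell and 0 rose. E2F8, a repressor of the family, fell by 1.22 (limma adjusted p = 0.0181). TFDP1, the partner of E2F proteins, fell by 0.73 (0.0128), and RBBP4, a DREAM subunit, fell by 0.62 (0.0437). E2F1, an activator, differed by -0.15 (limma adjusted p = 0.428) and RBL2, a pocket protein of DREAM, by 0.17 (0.338). E2F4, the DREAM E2F, read 3.86 on all 6 arrays, under the limit for testing. Of 29 tested hypoxia-response genes, 28 rose, with a median log2 difference of 1.78. VEGFA, the gene of bevacizumab's target, rose by 1.40 (limma adjusted p = 0.00609). CA9 was not analysed here.

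Values for RNA quality and for markers of cell types stand beside these results, and their part in the members' falls was not tested. The ACTB 3′ minus 5′ control value, which grows as RNA is broken, was 1.14, 1.33 and 1.66 on control arrays and 1.94, 1.86 and 1.64 on bevacizumab arrays (difference 0.43, exact two-sided permutation p = 0.2). The GAPDH value was -0.12 ± 0.02 against -0.02 ± 0.03 (exact p = 0.1, the smallest possible). With the ACTB value as a covariate 24 genes passed in all and none of them was a member; the 11 members that fell had differences of -1.33 to -0.41 in that fit, with limma adjusted p from 0.0586 to 0.174. Of the glioma markers, GFAP, OLIG2 and S100B were under 4 on all arrays, EGFR and CHI3L1 rose and NES fell; the 12 markers averaged 8.32 to 8.36 in controls and 8.56 to 8.74 under bevacizumab. The endothelial markers' mean log2 value was 3.38 to 3.46 in controls and 3.39 to 3.47 under bevacizumab, with 8 of 11, CDH5, VWF and KDR among them, under 4 on all arrays. The 8 mural markers averaged 7.02 to 7.10 against 5.95 to 6.22, and RGS5, ACTA2 and KCNJ8 of the 6 tested fell. The 8 fibroblast markers averaged 10.96 to 11.17 against 11.32 to 11.60, and DPT of the 8 rose. PDGFRA is among both the glioma and the fibroblast markers. On human arrays the mural and fibroblast signal can come from the tumour cells too, and its source was not tested. 7 of 8 macrophage markers were under 4 on all arrays (means 2.77 to 2.82 against 2.75 to 2.76), as were 7 of 7 neutrophil markers (2.24 to 2.29 against 2.24 to 2.25).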

How the data were processed

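Per the submitters' processing notes, which name GCOS 1.1.1.052 and GCRMA, the authors made the deposited values with GCRMA, a method that models background and then quantile-normalizes. The deposited table was read as log2 because its values run from 2.23 to 15.99; 33.3 to 34.3% of each array's probe sets sit at the lowest value, where changes are compressed. Of 54675 probe sets, 41091 had 1 gene symbol in the platform annotation, 1801 several and 11777 no listed gene, and 6 more were array controls with a symbol, left out with the other controls; 41037 matched RefSeq. 4 probe sets that name a member beside another gene were left out. Correlations between arrays were 0.992 to 0.997 within groups and 0.986 to 0.993 between them.

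Each gene was read from its probe set with the highest mean. Genes with a mean log2 of at least 4 (10233) were fitted with limma 3.58.1 in R 4.3.3 (lmFit and eBayes, two-sided, Benjamini-Hochberg over all genes tested, threshold 0.05). The scripts were tested on simulated data. The number of arrays, 3 per group, limits the precision. All members are accounted for; of other lists, up to 4 genes with the smallest p and MKI67, MCM7, VEGFA, CA9, E2F1, E2F4 and RBL2 were to be named, and any further gene was picked once its value was known. The members and lists were chosen with earlier results of these data known. Other filters, normalizations, probe set rules, a replicate block, an RNA-quality covariate and leaving out each array were tried.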

Additional observations from a re-analysis of the deposited data

How the results depend on the processing

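Of the settings tried for single members, 357 kept the direction and the side of the threshold, 40 lost a call, 11 gained one and 14 turned a direction, in genes with no call. Leaving out 1 array gave 262 to 934 genes lower and 296 to 1140 higher over all genes, 6 to 12 members lower, 12 to 20 replication genes lower, 0 to 12 other recombination genes lower, a member median of -0.52 to -0.36, and an ACTB 3′ minus 5′ difference of 0.31 to 0.57. With no filter on dim genes 331 genes were lower and 267 higher. In that setting 6 members (BLM, BRIP1, FANCI, RAD51AP1 and RAD54B lost), 13 replication genes and 3 other recombination genes were lower. It adds genes at the floor to the fit and brings the genes tested to 19775, and the cause of the smaller counts was not tested. Same-numbered arrays gave no sign of pairing: their deviations correlated at -0.05, -0.01 and -0.05, and none correlated best with its own number. With 3 arrays per group a weak pairing could be missed. With the replicate block 336 genes were lower and 568 higher, 8 members remained (FANCG, FANCI and RAD51AP1 lost) and 1 other recombination gene was lower. With the ACTB covariate 11 genes were lower and 13 higher, with 0 members, 0 replication genes and 1 other recombination gene lower and a member median of -0.71. Testing each probe set gave 20 member probe sets lower; quantile normalization again put 1 member, XRCC2, past the threshold as higher; a mean log2 of at least 6 gave a median of -0.65. FANCL passed under 6 settings besides leaving out bevacizumab array 1, and BARD1 under 4, each probe set on its own among them. For these the cause was not tested.

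Turned directions, none with a call, were RAD54L at 0.014, RAD50 at -0.34, FANCC at 0.047, ATM at -0.31 and CHEK2 at -0.015 with the ACTB covariate, and RAD50 at -0.012 (quantile again) and -0.021 (arrays centred). Leaving out 1 array gave RAD50 differences of -0.073 to 0.159, FANCC of -0.211 to 0.103, FANCF of -0.207 to 0.069 and CHEK2 of -0.046 to 0.223.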

Other observations

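Repair pathways outside the list moved unevenly. In non-homologous end joining, which rejoins broken ends without a template, 2 of 9 tested genes fell and 0 rose, with a median log2 difference of -0.35: XRCC6 and XRCC5, the Ku pair that caps a broken end, fell with differences of -0.56 (limma adjusted p = 0.0117) and -0.55 (0.0128). PRKDC, the kinase that Ku recruits, differed by -0.40 (limma adjusted p = 0.0673), and LIG4, the ligase of the pathway, by -0.56 (0.0815). Neither passed. In base excision and single-strand break repair 4 of 18 tested genes fell, with a median of -0.18. They were the glycosylase NTHL1 (-1.04), the break sensors PARP2 (-0.90, limma adjusted p = 0.00533) and PARP1 (-0.80, 0.0115) and the flap nuclease FEN1 (-0.81), which replication also uses.

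In nucleotide excision repair 1 of 19 tested genes fell, ERCC8 (-0.72, limma adjusted p = 0.0225), which acts when a polymerase stalls in transcription, and the median was -0.07. UVSSA, of the same branch, differed by 0.84 and did not pass (limma adjusted p = 0.0798). On the bevacizumab arrays the median shift of the excision genes was -0.02, 0.05 and -0.05, where the recombination, Fanconi and mismatch repair members were at -0.36, -0.31 and -0.66; the difference between the lists was not tested.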
